A study of Mus musculus with 12 samples.

Results

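Midkine (Mdk) and pleiotrophin (Ptn) are the members of a small family of secreted growth factors, and they were followed here across the developing mouse cerebral cortex. Members were all probe sets whose platform gene symbol is Mdk or Ptn, and this rule found 2 of 12488 probe sets, 1 for each gene. Mdk is probe set 160561_at (gene ID 17242, chromosome 2) and Ptn is probe set 97474_r_at (gene ID 19242, chromosome 6), with chromosomes as given by RefSeq on GRCm38.p6. The suffix _r of the Ptn probe set marks a design in which some of the manufacturer's rules for choosing probes were dropped. The tissue was untreated cortex of mouse embryos of stage E16.5 (days of embryonic development). Pieces of the hemisphere were taken by position as a medial, a dorsal, a ventral, a rostral and an occipital piece, and the whole hemisphere was the sixth group. Each group had 2 arrays, replicate 1 and replicate 2, from independent dissections. The labels give no strain, no number of embryos per dissection and no genetic change, and the piece titled rostral is called lateral in the protocol text.

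Both proteins are small, basic and rich in cysteine, and they bind heparan sulfate and chondroitin sulfate chains at the cell surface. Their known receptors and partners include the receptor phosphatase Ptprz1, whose activity pleiotrophin inhibits on binding, the kinase Alk, the endocytic receptor Lrp1, the proteoglycan syndecan 3 and the nuclear and surface protein nucleolin. Midkine was found as a gene induced by retinoic acid, and in the embryonic brain it is known as a factor of neural progenitors. Pleiotrophin is known for promoting neurite outgrowth and for lining the fibres of radial glia, the progenitors that also guide migrating neurons.

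The value per probe set is the average difference, a linear Affymetrix intensity that is the mean of perfect-match minus mismatch signals and can be negative. Before taking log2, every value below 694 was set to 694, a floor computed as the root mean square of the negative values in the table. A probe set was tested if it exceeded 2 times the floor, or 1387, on at least 2 of the 12 arrays, which 5832 probe sets did. Mdk exceeded this level on 12 arrays, at 2.70 to 28.2 times the floor. Ptn exceeded it on 9 arrays and ran from 1.77 to 4.06 times the floor, so its values lay nearer the noise of the arrays. Its 3 arrays below that level were occipital replicate 2 and both hemisphere arrays. Differences were tested with limma in 1 fit over the 12 arrays, with the Benjamini-Hochberg method applied to the 5832 probe sets of each comparison and a threshold of 0.05. Across probe sets the arrays of a group correlated at r = 0.901 to 0.962 and arrays of different groups at r = 0.854 to 0.969. The highest r of all, 0.969, was between occipital replicate 2 and hemisphere replicate 2, and occipital replicate 1 correlated at 0.963 with rostral replicate 2. Whether any of these arrays carries another group's title was not tested, and the titles were followed. If one did, the values given for the occipital, rostral and hemisphere groups would change their meaning, so calls that changed without the rostral and occipital arrays are named beside the results. Of 3 cortical neuron genes on the array, Tbr1 (log2 0.20) and Neurod2 (log2 -0.92) did not pass in the ventral piece against the other regions, and Neurod6 was lower there (log2 -1.26, limma adjusted p = 0.00661).

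Mdk was low in the ventral piece and high in every other part of the hemisphere. Its average difference was 2508 and 1869 in the ventral arrays. In the medial arrays it was 19542 and 16751, in the dorsal arrays 13342 and 11620, in the rostral arrays 12462 and 11349, and in the occipital arrays 12809 and 16733. The hemisphere arrays had 14190 and 16789. The ventral arrays did not overlap with any other group, and the lowest of the 8 arrays of the other 4 regions, at 11349, stood far above both. The share of all probe sets whose ventral arrays part in this way was not counted.

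**Figure D1:**
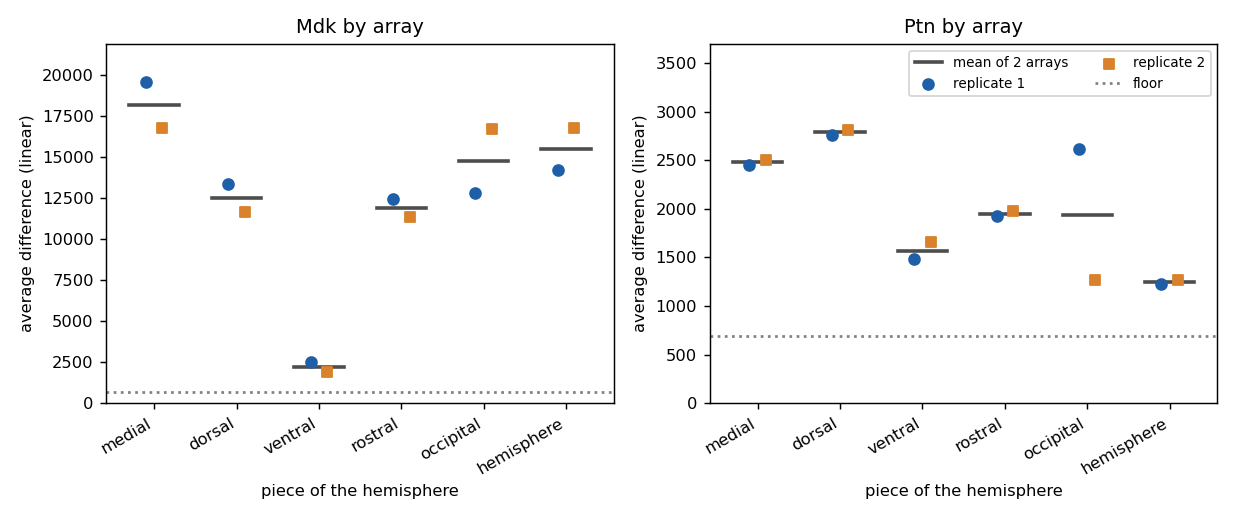
Average difference (linear scale, both axes from 0) of Mdk, left, and Ptn, right, in each array; circles are replicate 1, squares replicate 2, grey bars the mean of 2 arrays and the dotted line the floor of 694. Mdk stands at 2508 and 1869 in the ventral piece and at 11349 or above elsewhere, while Ptn agrees closely between replicates in every group except the occipital piece.

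In the ventral piece Mdk averaged 2189 ± 452 (SD, n = 2), against 14326 ± 2972 in the other 4 regions (SD, n = 8). The difference was -2.70 ± 0.17 in log2 (SE; limma adjusted p = 0.00025), with -2.51 in replicate 1 and -2.89 in replicate 2. Without the rostral and occipital arrays it was -2.79 ± 0.19 (adjusted p = 0.000862). Of all 5832 probe sets, 571 or 9.79% passed in this comparison, 5.54% with a lower value in the ventral piece, and Mdk had the smallest p-value of them all. Against single groups the ventral piece was lower than the rostral piece by 5.49-fold (adjusted p = 0.00729), than the occipital piece by 6.76-fold (adjusted p = 0.00282) and than the hemisphere by 7.13-fold (adjusted p = 0.00224), all by limma. Probe sets passing in these 3 comparisons made up 1.58%, 1.29% and 1.08%. With only the 4 arrays of each pair in the fit, the 3 calls were lost (adjusted p = 0.15, 0.176 and 0.346) at the same size of difference.

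The medial piece held the highest mean of Mdk, 18146 ± 1973 (SD, n = 2), against 10337 ± 5295 in the other 4 regions (SD, n = 8). This rise was 2.19-fold (log2 1.13 ± 0.17 SE, limma adjusted p = 0.0211), in a comparison in which 1.27% of all probe sets passed, 0.514% of all with a higher and 0.754% with a lower value in the medial piece. The mean of the other regions includes the ventral piece. Against the dorsal, rostral and occipital pieces alone, a reference chosen after the values were seen, the medial piece differed by 0.48 ± 0.17 in log2 and did not pass (adjusted p = 0.526). Nor did the medial piece pass against any of these pieces singly, with 1.45-fold over dorsal (adjusted p = 0.754), 1.52-fold over rostral (adjusted p = 0.711) and 1.24-fold over occipital (adjusted p = 0.954), where 0.0686%, 0.0171% and 0.0686% of probe sets passed. Without the rostral and occipital arrays, so that the ventral piece made up more of the reference, the medial difference was 1.80 ± 0.19 (adjusted p = 0.0118). Mdk in the medial piece was 8.36-fold higher than in the ventral piece (95% interval 5.97 to 11.7, adjusted p = 0.000289), and the dorsal piece was 5.75-fold higher than the ventral piece (95% interval 4.11 to 8.05, adjusted p = 0.00143). Probe sets passing in these comparisons made up 11.2% for medial against ventral and 5.28% for dorsal against ventral. The call of the medial piece against the other 4 was also lost without medial replicate 1 or 2 (adjusted p = 0.226 and 0.233), and narrowly without either dorsal or either ventral array (0.0541 to 0.0595).

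Ordered by mean log2 level, Mdk ran from medial over hemisphere (15489 ± 1838), occipital (14771 ± 2775), dorsal (12481 ± 1218) and rostral (11905 ± 787) to ventral (SD, n = 2 each). Of the 5 steps between neighbours in this order, only the last, ventral against rostral, passed limma's threshold. For the other 4 steps the adjusted p was 0.834 for medial against hemisphere and 1 for occipital against hemisphere, dorsal against occipital (0.103% of probe sets passed) and dorsal against rostral (0.0686%). The dorsal, rostral and occipital pieces each had a positive log2 difference against the other 4 regions (0.45, 0.37 and 0.75), none of which passed. In the first of these comparisons 0.274% of probe sets passed and in the last 2 none (0%), with 104 for rostral and 126 for occipital at an unadjusted p under 0.05 in limma. With the ventral piece left out of the reference, those of the dorsal and rostral pieces turned to -0.24 and -0.32, and that of the occipital piece was 0.08. Over the 5 regions together Mdk had the third smallest p-value of limma's F-test (adjusted p = 0.00173), which 190 probe sets or 3.26% passed, with a span of 8.36-fold between the highest and the lowest region.

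Ptn spanned 1.78-fold between its highest and lowest region, against 8.36-fold for Mdk. The values of Ptn lay at 1.77 to 4.06 times the floor and those of Mdk at 2.70 to 28.2 times. Whether the low signal of its probe set narrowed the span of Ptn was not tested. By limma Ptn was called in 0 of 21 comparisons and Mdk in 8 of 21. Over all probe sets 0% to 11.2% passed in these comparisons, which reuse the same 12 arrays. All 8 calls of Mdk involve the ventral piece, as 1 side, in the reference or among the regions of the F-test. In the dorsal arrays the average difference of Ptn was 2765 and 2813, and in the medial arrays 2456 and 2503. The rostral arrays had 1923 and 1975 and the ventral arrays 1480 and 1662. The hemisphere arrays had 1227 and 1272. In these 5 groups the values of a pair lay close together (SD 32.0 to 129). The occipital arrays were the exception at 2616 and 1265 (SD 955), the first near the dorsal arrays and the second near the hemisphere arrays. Between these 2 values lay all medial, rostral and ventral arrays. The other 5 pairs did not overlap with each other, but the share of probe sets that part in this way was not counted. Limma called none of these differences.

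The order of mean log2 level of Ptn was dorsal (2789 ± 33.8), medial (2480 ± 33.5), rostral (1949 ± 37.1), occipital (1940 ± 955), ventral (1571 ± 129) and hemisphere (1250 ± 32.0; SD, n = 2 each). None of the 5 steps between neighbours passed (limma adjusted p = 0.67 to 1). In the ventral piece Ptn differed from the other 4 regions by -0.50 ± 0.23 in log2 (SE; 95% interval -1.02 to 0.01, adjusted p = 0.225), and in the dorsal piece by 0.53 ± 0.23 (95% interval 0.02 to 1.05, adjusted p = 0.711). Dorsal against ventral gave 1.78-fold (95% interval 1.13 to 2.79, adjusted p = 0.154). Against the hemisphere Ptn was 2.23-fold higher in the dorsal piece (unadjusted p = 0.00297, adjusted p = 0.346) and 1.98-fold higher in the medial piece (unadjusted p = 0.00734, adjusted p = 0.31) in limma's fit. In those 2 comparisons 0.0514% and 0.0686% of all probe sets passed. At an unadjusted p under 0.05, limma found 5 of the 21 comparisons for Ptn. The smallest adjusted p was 0.154. Over the 5 regions the F-test of Ptn gave an adjusted p of 0.478.

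The unlike occipital arrays bore on every test of Ptn, because limma's fit shares 1 spread over all groups. Without occipital replicate 2, Ptn in the ventral piece passed against the other regions (log2 -0.64 ± 0.12, adjusted p = 0.0185), and without occipital replicate 1 it did not (-0.37 ± 0.12, adjusted p = 0.106). Leaving out either occipital array brought dorsal over ventral (adjusted p = 0.0238) and medial over ventral (adjusted p = 0.0288) past the threshold at unchanged differences. Leaving out all arrays labelled rostral or occipital brought ventral against the other regions (-0.75, adjusted p = 0.0193), dorsal over ventral (adjusted p = 0.0361), medial over ventral (adjusted p = 0.0453) and the F-test over the remaining regions (adjusted p = 0.0451) past it. The F-test also passed without occipital replicate 1 (adjusted p = 0.0409) and not without occipital replicate 2 (adjusted p = 0.0801).

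**Figure D2:**
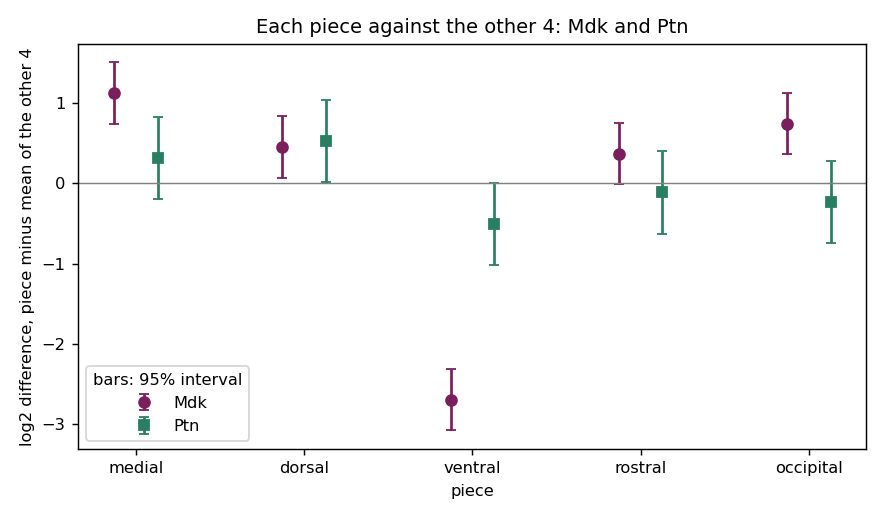
Log2 difference of each piece minus the unweighted mean of the other 4 pieces for Mdk (circles) and Ptn (squares), with 95% intervals from limma's fit. Mdk in the ventral piece lies at -2.70 and Ptn at -0.50, and the interval of Ptn there just crosses 0.

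Whether the genes differ in their regional pattern was tested on the log2 value of Mdk minus that of Ptn within each array, which is read only between groups. This difference was 0.76 and 0.17 in the ventral arrays and 2.05 to 3.73 in the 8 arrays of the other regions. In the ventral piece it differed by -2.20 in log2 from the other 4 regions. By an exact two-sided permutation test over the 45 choices of 2 arrays, p was 0.0222, the smallest this design allows, and 0.111 after adjustment over the 5 regions. With so few choices a region at the smallest p stays at 0.111, so the adjusted test could not pass 0.05 here. No other region fell below an adjusted p of 0.667. Over the 5 regions together, an exact permutation test of the F ratio over 945 pairings of the 10 arrays gave p = 0.055. That p was 0.00106, the smallest possible, without occipital replicate 1 and 0.00529 without occipital replicate 2, where the occipital arrays had given 2.29 and 3.73. Over the 12 arrays Mdk and Ptn correlated at r = 0.21, with 0.44 in the 6 arrays of replicate 1 and 0.01 in those of replicate 2, as a description of arrays that fall into groups.

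The hemisphere lay at a different place in the order of each gene. Mdk in the hemisphere arrays, at 14190 and 16789, fell within the range of the pieces. Ptn in them, at 1227 and 1272, lay below the mean of every piece, and of the single arrays of the pieces only occipital replicate 2, at 1265, was as low. Every piece therefore had a positive log2 difference of Ptn against the hemisphere, from 0.33 ± 0.29 in the ventral to 1.16 ± 0.29 in the dorsal piece (SE), none of which passed. For Mdk the differences against the hemisphere were -2.83 in the ventral piece and between -0.38 and 0.23 in the other 4. Of these the ventral one alone passed. In the rostral and the occipital piece no probe set passed against the hemisphere (limma, 0%), and 234 and 146 had an unadjusted p under 0.05.

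Of the tested receptors and binding partners of both factors, Nrp1 passed in the ventral piece in limma's fit. Of 23 listed genes 20 were on the array and 12 were tested. Nrp1 is a co-receptor for semaphorins and growth factors. In the ventral piece 0 rose and 1 fell by limma, where 4.25% of all probe sets rose and 5.54% fell. The list's median log2 difference was -0.18, against -0.02 over all probe sets. In the other 4 comparisons of a region with the rest, 0 of the 12 passed by limma. Nrp1 had 2186 and 3784 in the ventral arrays, against 10708 to 24623 in the 8 arrays of the other regions (log2 -2.49 ± 0.46 SE, adjusted p = 0.0115). It reached its highest values in medial replicate 2, occipital replicate 2 and rostral replicate 1, and its call was lost without ventral replicate 1 or 2 (adjusted p = 0.163 and 0.0563) and without the filter on low values (0.0657). The second probe set of Nrp1 differed by -2.16 (adjusted p = 0.00962). The receptor Notch2 (log2 -0.70 ± 0.19, adjusted p = 0.0537) and the integrin subunit Itgb1 (-0.43 ± 0.13, adjusted p = 0.0716) missed the threshold. Each passed under some other settings of floor, scale, filter or variance model. Both ventral values of Notch2, 126 and 88.6, lay under the floor, against 769 to 1570 in the other regions. The size of its difference therefore depends on the floor.

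Ptprz1, the receptor phosphatase bound by pleiotrophin, had 3682 and 5434 in the ventral arrays, against 6158 to 9384 in the other regions. The difference of -0.70 ± 0.24 in log2 did not pass (limma adjusted p = 0.116). It passed with replicate number as a block in limma's fit (adjusted p = 0.0354). A second tested probe set of the gene, whose _f suffix marks probes shared within a gene family, gave 0.08 (limma adjusted p = 0.84). Its ventral arrays, at 7194 and 6107, lay within the 4520 to 9035 of the other regions. The kinase Alk differed by 0.59 ± 0.28 (adjusted p = 0.249), Lrp1 by 0.32 ± 0.24 (adjusted p = 0.504) and nucleolin (Ncl) by -0.19 ± 0.13 (adjusted p = 0.422) in the ventral piece. The differences of Alk and Lrp1 were positive where that of Mdk was negative, and limma did not call any of the 3 receptors. Syndecan 3 (Sdc3) ran from 446 to 1150 over the 12 arrays, stayed under the level needed for testing and has no test here.

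**Figure D3:**
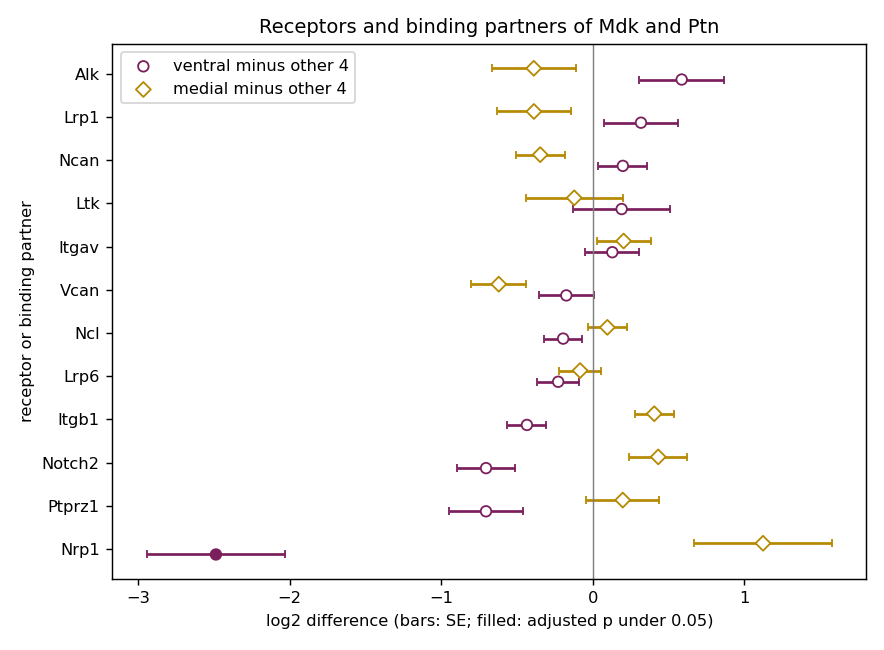
Log2 difference of the ventral piece (circles) and of the medial piece (diamonds) against the other 4 pieces for the 12 tested receptors and binding partners, with SE bars; filled symbols have an adjusted p under 0.05. Nrp1 at -2.49 in the ventral piece is the only filled symbol.

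Genes around the pathway were described in 4 further lists. Of 11 tested genes that are other ligands or substrates of Ptprz1, among them the adhesion molecules Cntn1 and Ncam1 and the kinase Fyn, 0 passed in any region by limma, with a median of 0.12 in the ventral piece, where 9.79% of all probe sets passed. Of 11 tested heparan sulfate core proteins and enzymes 1 fell in the ventral piece, where 5.54% of all probe sets fell, and 0 rose, with a median of -0.04. That gene was the glypican Gpc4, a cell surface proteoglycan, with 436 and 179 in the ventral arrays, against 916 to 2284 in the other regions (log2 -0.99 ± 0.23 SE, limma adjusted p = 0.0307). Both ventral values lay under the floor, and the call was lost in 9 of 21 alternatives. These were 2 times the floor (-0.19, adjusted p = 0.354), no filter, quantile normalization, limma with trend and robust settings, and the removal of medial 1, dorsal 1, ventral 1, ventral 2 or occipital 2 (adjusted p of these 8 between 0.0516 and 0.214). In the medial piece Gpc4 differed by 1.02 ± 0.23 (adjusted p = 0.0791), and it passed there without the rostral and occipital arrays (1.20, adjusted p = 0.0304). Of 4 tested other heparin-binding growth factors, Hbegf, Pdgfa, Cxcl12 and Bmp4, 0 passed in any region by limma, with a median of 0.23 in the ventral piece, and 17 more on the array stayed under the filter. Without the rostral and occipital arrays the growth factor Pdgfa passed in the ventral piece (1.07, adjusted p = 0.0426, against 0.78 and 0.106 with all arrays) and in the medial piece (-1.28, adjusted p = 0.0498, against -1.17 and 0.0752). In the retinoic acid list 1 of 4 tested genes rose in the ventral piece, where 4.25% of all probe sets rose, with a list median of 0.28. It was Crabp1, a cytosolic carrier of retinoic acid. Crabp1 had 3472 and 2708 in the ventral arrays, against 75.7 to 868 in the 8 arrays of the other regions, 6 of them at the floor (log2 2.09 ± 0.20 SE, adjusted p = 0.000882). It was high where Mdk was low, and its hemisphere arrays, at 1705 and 992, lay between. Outside the ventral piece only hemisphere replicate 1 exceeded the level of 1387 needed for testing. Crabp1 was thus tested only through the piece where it is high. Its fold depends on the floor, with a log2 difference of 1.14 at 2 times the floor and 2.70 at a floor of 0.5 times that used.

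The genes most like Mdk over the 12 arrays shared its low ventral values at a smaller size. Among 4561 other genes the highest Pearson correlations of floored log2 values were those of Urod, an enzyme of haem synthesis (r = 0.979), Cnn3, an actin-binding calponin (0.969), Ruvbl2, an ATPase of chromatin complexes (0.962), the fibroblast growth factor receptor Fgfr2 (0.959) and Actl6a, a subunit of chromatin remodelling complexes in progenitors (0.958). In the 6 arrays of replicate 1 these 5 ran from 0.934 to 0.974 and in those of replicate 2 from 0.983 to 0.995. Their ventral differences lay between -1.53 for Urod and -0.60 for Ruvbl2, against -2.70 for Mdk. Urod lay under the floor in ventral replicate 2, at 268, so the size of its difference depends on the floor. The most opposite were Wfs1 (r = -0.973), Sowaha (-0.965) and the transcription factor Ebf2 (-0.961), of which Wfs1 and Sowaha were at or under the floor on 10 of 12 arrays. Without the 2 ventral arrays, a check made after the values were seen, r with Mdk was 0.823 for Urod, 0.860 for Ruvbl2, 0.830 for Fgfr2, 0.632 for Actl6a, 0.50 for Cnn3 and 0.077 for Ebf2.

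For Ptn the likest genes were less close. They were Cd2bp2, a component of the splicing machinery (r = 0.898), the nuclear import receptor Ipo5 (0.894), the ubiquitin ligase Peli1 (0.853), the DNA damage kinase Atm (0.839) and the formin Fhod3 (0.829), again among 4561 genes and 12 arrays. Like Ptn, all 5 were lower in occipital replicate 2 than in occipital replicate 1, a likeness that entered into their choice. The most opposite were Plekha1 (r = -0.885), Aldh2 (-0.856) and Maged2 (-0.842). Without the ventral arrays the 5 likest genes kept r between 0.837 for Fhod3 and 0.936 for Ipo5. The points of these correlations are arrays in groups of 2 and not independent samples of cortex. For both Mdk and Ptn the genes were chosen on these same 12 arrays. Their shared pattern and the r values in parts of the arrays are therefore a description and no separate evidence.

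**Figure D4:**
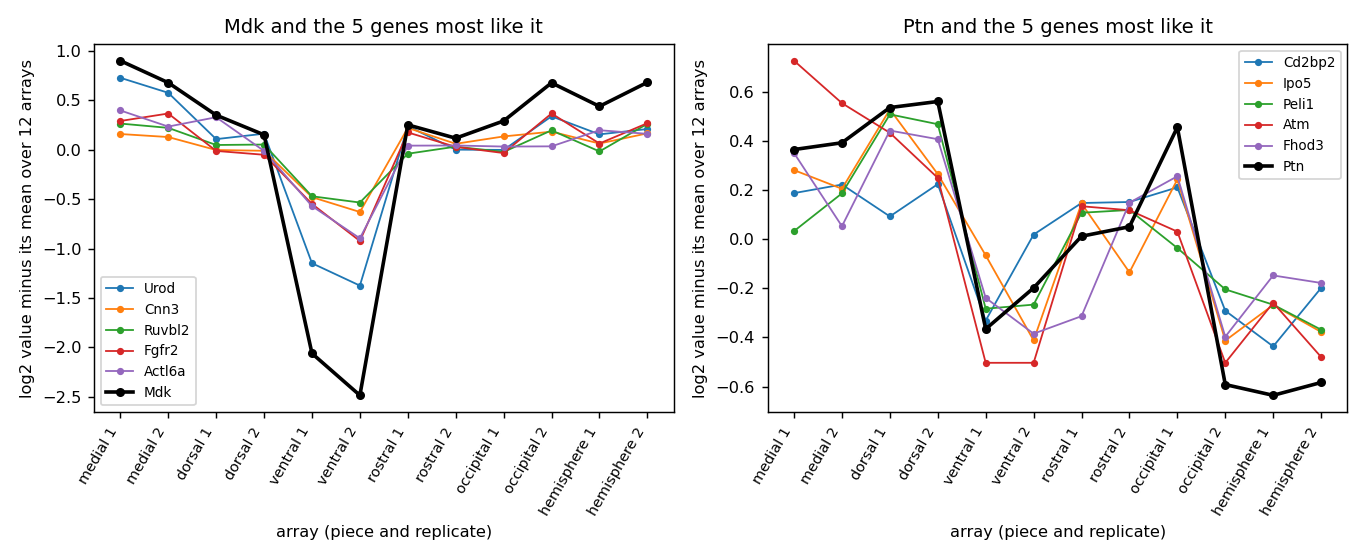
Floored log2 value minus its mean over the 12 arrays for Mdk (left, black) and Ptn (right, black) and the 5 genes most correlated with each (colours), by piece and replicate. The ventral arrays set Mdk and its likest genes apart, and for Ptn the occipital arrays part between the replicates.

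The summed markers of dividing cells were lowest in the ventral and highest in the medial piece, as was the mean of Mdk. Of 15 listed, 14 were on the array and 13 tested, and in the ventral piece 0 rose and 11 fell by limma, while in the medial piece 6 rose and 0 fell. The shares over all probe sets were 4.25% higher and 5.54% lower for ventral, and 0.514% higher and 0.754% lower for medial. Without the rostral and occipital arrays 10 of the 13 fell in the ventral piece and 8 rose in the medial piece. Their summed level was 27167 to 29872 in the ventral piece and 82748 to 83231 in the medial piece. It was 55219 to 55333 in the dorsal, 54801 to 67376 in the rostral, 54502 to 68112 in the occipital piece and 52267 to 56995 in the hemisphere. The order of Mdk followed these sums at both ends but not in between. Occipital replicate 2, with 16733 for Mdk, had a lower sum than occipital replicate 1, with 12809. Ptn was highest in the dorsal piece, whose sums lay within the range of the hemisphere sums, where Ptn was lowest. Intermediate progenitor markers summed to 1183 to 2541 in the ventral piece, against 11744 to 32110 over the other 4 regions, and 3 of 3 tested fell. Radial glia markers summed to 76773 to 80804 in the ventral piece, within the 70428 to 91226 of the others. Most of the ventral sum was Fabp7, at 54953 and 53285. Of 6 tested, 1, Prom1, passed as lower in the ventral piece. The ventral difference was negative for 5 of the 6 and positive for 1, Fabp7, with a list median of -0.52. Neuronal markers summed to 274572 to 280197, above the 168440 to 248034 of the others, with 5 of 9 higher, and GABAergic markers to 115794 to 130328, above 22150 to 79678, with 5 of 9 higher (7 of 9 without the rostral and occipital arrays). The part of these cells in the levels of Mdk and Ptn was not tested. In bulk tissue fewer cells of a type and less RNA per cell cannot be told apart.

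**Figure D5:**
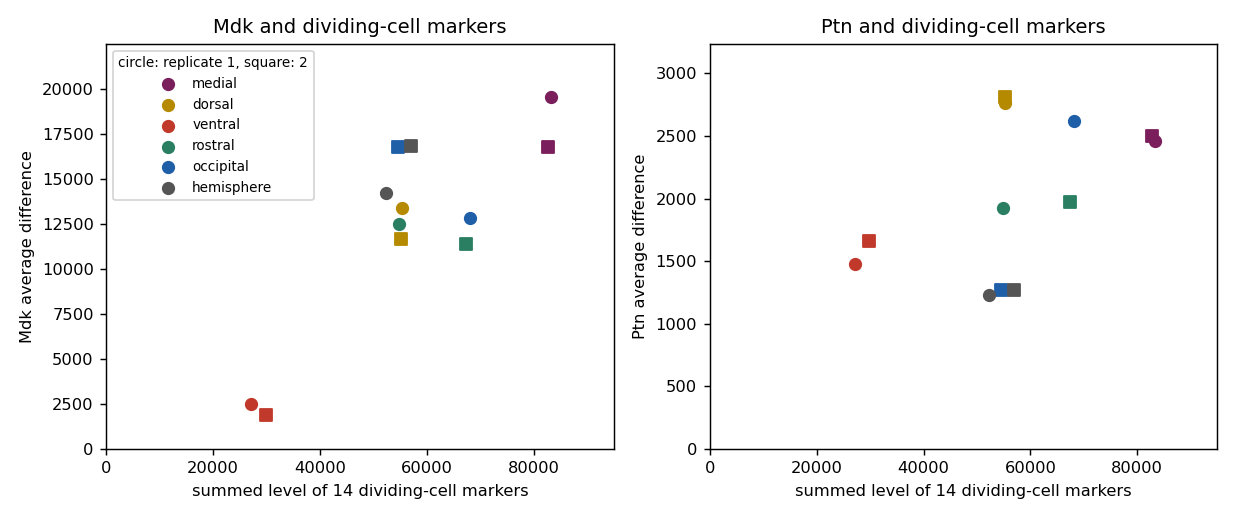
Average difference of Mdk (left) and Ptn (right) against the summed average difference of 14 dividing-cell markers in each of the 12 arrays; colours are pieces, circles replicate 1 and squares replicate 2, all axes linear from 0. The ventral arrays are lowest on both axes for Mdk, and for Ptn the hemisphere arrays are lower than the ventral arrays at larger marker sums.

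Markers of cells from outside the cortical wall were present at levels that differed by list. Choroid plexus markers (4 of 5 on the array) summed to 1416 to 2244 in the ventral and 1425 to 1710 in the dorsal piece, against 3477 to 9136 over the medial, rostral and occipital pieces. Ttr, the leading gene of that list, had 2151 and 4564 in the medial arrays, 2058 and 971 in the rostral arrays and 1228 and 3527 in the occipital arrays. Its values were at most 329 in the ventral and dorsal arrays, and 2382 and 2446 in the hemisphere arrays. Aqp1 ran from 654 to 3321 over the 12 arrays, and Kl was at or under the floor on all of them. The choroid plexus sums were thus low in the ventral piece, where Mdk was low, and also in the dorsal piece, where Ptn was highest. Neither Ttr (medial log2 1.52 ± 0.42, adjusted p = 0.134) nor Aqp1 passed in limma's fit, and Ttr passed as higher in the medial piece without the rostral and occipital arrays (2.18 ± 0.29, adjusted p = 0.0220).

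Meningeal sums ran from 9671 to 17756 over the 5 regions, with Col1a2 and Igf2 above the floor on all 12 arrays and Foxc1, Foxd1, Lum and Col3a1 at or under it on all 12. Endothelial sums ran from 7561 to 11140 over the 5 regions and were 6184 and 11157 in the hemisphere arrays. Cldn5 (3740 to 4931) and Kdr (839 to 4911) were above the floor on all 12 arrays and Pecam1 and Tek at or under it. Microglial sums ran from 4661 to 7813, with C1qa, Csf1r and Cx3cr1 above the floor on all 12 arrays and Aif1 and Fcer1g at or under it. Red blood cell sums ran from 72229 to 88283 over the 5 regions, nearly all of it Hba-a1, and were 117040 and 87272 in the hemisphere arrays. Of the 3 meningeal, 2 endothelial, 3 microglial and 2 red blood cell genes tested, 0 passed in any region by limma. Over all probe sets 9.79% passed in the ventral, 1.27% in the medial, 0.274% in the dorsal and 0% in the rostral and occipital pieces. So few tested genes cannot show whether these cells were evenly spread. Kl and Aif1 were at or below 0 on both ventral arrays. The part of all these cells in the results was not tested.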

How the data were processed

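Per the labels, poly(A)+ RNA was copied into biotin-labelled cRNA, hybridised to Affymetrix mouse arrays and each array scanned 2 times. The deposited table holds the authors' average differences, linear intensities per probe set. Software and build are not given in the sources used here. Trimmed means of the 12 arrays (2501.6 to 2501.9) show that the deposited intensities had been brought to a common level, and no further scaling was applied. Genes come from the platform annotation, and RefSeq gene IDs changed 0 symbols. Of 12488 probe sets, 66 controls were left out. For listed genes with several probe sets the tested one with the highest mean was used.

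limma 3.58.1 in R 4.3.3 was fitted with a mean for each of 6 groups (6 residual and 2.86 prior degrees of freedom) and tested on simulated data. Python 3.11.15 ran the exact permutation tests. Replicate numbers were not treated as pairs, because the labels do not say that equal numbers share a dissection. The actin control's ratio of 5' to 3' signal was 0.604 to 0.831 in replicate 1 and 0.804 to 0.887 in replicate 2. Members, lists and tests were chosen with earlier results of these data known. Named genes were the members, listed genes past the threshold, 5 receptors fixed by name, and for each member the 5 most and 3 least correlated genes. The alternatives were other floors, filters, normalization, scale and variance models, a replicate block, fewer groups in the fit and each array left out. The few arrays limit every precision.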

Additional observations from a re-analysis of the deposited data

How the results depend on the processing

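The lower ventral level of Mdk against the other regions passed under all 22 alternatives, at -2.91 to -2.49 with 1 array left out, as did its F-test over the regions in 21 (span 2.85 to 3.27 with 1 array left out). Deviations of same-numbered arrays correlated above 0.1 in 14 of 15 pairs of groups, at up to 0.56, and at -0.06 between rostral and occipital. With replicate number as a block (Mdk ventral -2.70, adjusted p = 0.000358), no call of Mdk or Ptn changed, while 938 probe sets passed for the ventral piece in place of 571. Ptprz1, Itgb1 and Notch2 then also passed as lower in the ventral piece (adjusted p = 0.0354, 0.0372 and 0.0409), and Dlg4 and Cntn1 as higher (0.0287 and 0.0246). In the medial piece Vcan, Ncam1, Dlg4 and Pdgfa passed as lower and Gpc4 as higher (0.0223 to 0.0436). Of 6 tested radial glia markers 4 passed as lower in the ventral piece. Over all alternatives the count of probe sets passing for the ventral piece ran from 91 to 938. That of the medial piece ran from 0 to 256 (74 as reported), of the dorsal piece from 2 to 45 (16 as reported) and of the F-test from 11 to 442 (190 as reported). The medial rise of Mdk lost its call without the filter (log2 1.13, adjusted p = 0.0561) and with a reference free of the ventral piece (0.48), an alternative chosen after the data were seen. It lay at 1.02 to 1.24 with 1 array left out. Under the same reference Mdk changed sign in the dorsal (-0.24) and rostral (-0.32) pieces. With only the arrays compared, Mdk in the ventral piece lost its calls against hemisphere (-2.83), occipital (-2.76) and rostral (-2.46), with 2 residual degrees of freedom.

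For Ptn, leaving out the rostral and occipital arrays gave new calls for dorsal against ventral (0.83, also the span of the F-test), medial against ventral (0.66) and ventral against the other regions (-0.75). With 1 array left out these ran from 0.75 to 0.91, 0.58 to 0.74 and -0.64 to -0.37, and the span of the F-test from 0.75 to 1.14. Uncalled differences that changed sign with 1 array left out were, for Mdk, dorsal minus rostral (-0.033 to 0.17) and occipital minus hemisphere (-0.27 to 0.12). For Ptn they were medial minus occipital (-0.077 to 0.97), occipital minus other regions (-0.76 to 0.29), rostral minus occipital (-0.42 to 0.62), rostral minus other regions (-0.24 to 0.018) and ventral minus occipital (-0.74 to 0.31). The F ratio of Mdk minus Ptn was 8.62 after quantile normalization (exact permutation p = 0.0497) and 3.68 to 38.8 with 1 array left out. Under the stricter filter Ptn was not tested and has no value. The cause of these changes was not tested. Ptn near the floor and 2 arrays a group limit what can be seen.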
